A study of Homo sapiens with 18 samples.

Results

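The clustered histone genes examined here were the rows of the count table named HIST1H, HIST2H or HIST3H, plus HIST4H4. The rule found 89 of 60623 genes, of which 66 lie on chromosome 6, 18 on chromosome 1, 2 on chromosome 13 and 1 on chromosome 12, and 2, HIST2H2AA3 and HIST2H2AA4, were not matched by identifier to the annotation used here (GENCODE release 44, hg38). Of the 87 matched genes, 69 are annotated as protein-coding and 18 as pseudogenes. Poly(A) RNA was sequenced from wild-type IMR90 cells, a line of human lung fibroblasts, in 6 groups of 3 libraries. Proliferating cells were given the solvent DMSO, RG7388 or HDM201 (Prolif_DMSO, Prolif_RG7388, Prolif_HDM201). Cells made senescent by ionizing radiation received the same agents from day 4 to day 11 after irradiation (IR_DMSO, IR_RG7388, IR_HDM201), and all cells came from 1 line. RG7388 and HDM201 inhibit MDM2, the ubiquitin ligase that holds down the tumor suppressor p53.

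Replication-dependent histone genes supply the H2A, H2B, H3, H4 and linker H1 proteins that package newly made DNA. Their messages normally end at a short stem-loop soon after the stop codon, without a poly(A) tail. The stem-loop is bound by SLBP. The message is cut just after the stem-loop with the help of the U7 small nuclear RNP, which includes LSM10 and LSM11. Cells in S phase make large amounts of these messages and remove them when DNA synthesis stops. Some of the genes can also give longer, polyadenylated messages that use a poly(A) signal past the stem-loop, and these have been described in differentiated and non-dividing cells. Libraries selected for poly(A) therefore see the tailed messages and whatever remains of the others, not the full histone message pool.

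All 69 protein-coding members carried the stem-loop within 100 bases of the stop codon, with at most 2 mismatches to the consensus, against 20 of 19855 other protein-coding genes (0.101%). A set of 39 members shared the form seen in HIST1H2AC. The others differed in the loop or in the stem, as the 5 examples below show on the sense strand, with the 4-base loop in capitals. These were picked because HIST1H2AC and HIST1H2BK had the largest counts, HIST2H2AC and HIST1H4C did not rise, and HIST1H3E has a loop with a mismatch to the consensus.

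HIST1H2AC (chr6:26124669-26124684, plus strand): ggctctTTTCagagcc
HIST1H2BK (chr6:27146366-27146381, minus strand): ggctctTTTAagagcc
HIST2H2AC (chr1:149887391-149887406, plus strand): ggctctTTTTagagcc
HIST1H4C (chr6:26104317-26104332, plus strand): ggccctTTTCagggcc
HIST1H3E (chr6:26225596-26225611, plus strand): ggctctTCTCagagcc

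The annotated ends divided the 69 genes. In 18 members at least 1 transcript was annotated to run more than 100 bases past the stem-loop, and in 12 of these the last 50 bases held AATAAA or ATTAAA, a signal found in the same window of 78.0% of other protein-coding genes. In the other 51 members annotation stopped at the stem-loop. HIST1H2AC, for example, was annotated to 14432 bases past it with a spliced transcript, whereas HIST1H2BK ended 5 bases after it. The annotation release behind the deposited counts is not given in the sources used here, so the gene models counted by the authors may end elsewhere.

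The 18 libraries held 21609198 to 66647700 counts each, and the histone genes took 1447 to 28644 of these per library. A filter on low counts kept 57 of the 89 members and 18151 genes in all. The 32 members left out had at most 125 counts over all libraries together, and 4 of them had none. Fibroblast markers were abundant (11 genes summing to 19442 to 68894 CPM, counts scaled to the library total by TMM), while 6 of 8 epithelial, 5 of 7 endothelial and 6 of 8 leukocyte markers stayed under 1 CPM in every library. A set of 4 libraries stood apart from their groups in genes that fibroblasts are not known to use. The summed level of 406 olfactory receptor genes was 19.2 CPM in Prolif_DMSO replicate 1, 22.2 CPM in Prolif_HDM201 replicate 3, 14.2 CPM in IR_DMSO replicate 1 and 14.5 CPM in IR_HDM201 replicate 1. In the remaining 14 libraries it lay between 2.48 and 11.8 CPM. The 43 histone genes annotated to the stem-loop with a mean under 1 CPM were also high in these 4 libraries, with sums of 40.8, 22.1, 22.2 and 26.3 CPM against 3.91 to 11.9 CPM in the others. Counts of members called are therefore also given without these 4 libraries, a choice made after the data were seen. The choice rests partly on the levels of members, so those counts are not independent of it.

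**Figure D1:**
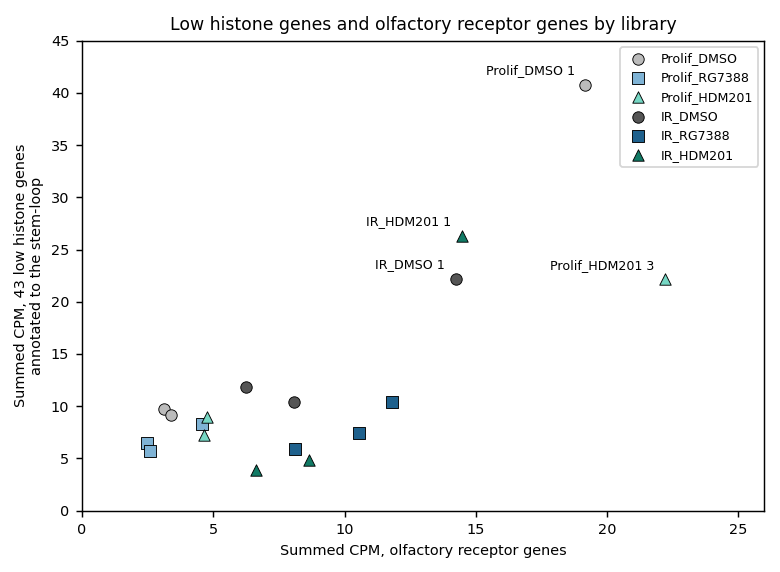
Summed level of the 43 low histone genes annotated to the stem-loop (y axis, CPM) against the summed level of 406 olfactory receptor genes (x axis, CPM), 1 point per library and 1 color and marker per group. The 4 labelled libraries lie above 14 CPM on the x axis and above 22 CPM on the y axis, and the other 14 lie under 12 CPM on both.

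The first question was how the histone genes differed between senescent and proliferating cells. In DMSO, 24 of the 57 tested members rose after irradiation and 2 fell, whereas 26.3% of all tested genes rose and 25.3% fell (edgeR quasi-likelihood test, Benjamini-Hochberg adjusted p under 0.05, called below). The members that rose included the most abundant of the set, HIST1H2AC, HIST1H2BK, HIST1H1C and HIST2H2BE. Summed over the 89 members, the level was 77.9 ± 27.1 CPM in Prolif_DMSO and 401 ± 34.1 CPM in IR_DMSO (SD, n = 3). In RNA from a whole culture, a change in the share of cells that use a gene and a change in RNA per cell cannot be told apart, and CPM is relative to the other RNA in the library. The median log2 fold change was 0.56 over the tested members and 0.05 over all tested genes. Without the 4 libraries that stood apart, 29 of 47 members rose (28.3% of all tested genes) and 2 fell (28.7%), and the 26 members called with all libraries were called again. Markers moved with irradiation too: the 11 fibroblast markers summed to 57317 ± 3465 CPM in Prolif_DMSO and 22226 ± 4573 CPM in IR_DMSO, the 7 endothelial ones to 86.7 ± 3.84 and 127 ± 10.2 CPM, the 8 epithelial ones to 10.1 ± 1.18 and 3.94 ± 0.0939 CPM and the 8 leukocyte ones to 1.22 ± 0.419 and 3.66 ± 0.424 CPM. Their part in the result was not tested.

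HIST1H2AC, an H2A gene, had the largest rise of a member detected in both groups. Its level was 6.30, 5.82 and 7.41 CPM in Prolif_DMSO and 99.1, 124 and 111 CPM in IR_DMSO. The 2 groups did not overlap, and the log2 fold change was 4.09 ± 0.12 (SE, adjusted p = 2.97e-17). HIST2H2BE, an H2B gene of the chromosome 1 cluster, stood at 3.63, 3.06 and 2.57 CPM in Prolif_DMSO and at 35.0, 45.7 and 45.4 CPM in IR_DMSO, a log2 fold change of 3.75 ± 0.17 (adjusted p = 1.87e-14). For HIST1H2BK, another H2B gene, the 3 Prolif_DMSO libraries held 8.69, 8.02 and 7.32 CPM and the 3 IR_DMSO libraries 49.4, 64.3 and 64.1 CPM (log2 fold change 2.88 ± 0.12, adjusted p = 4.06e-15). The groups did not overlap for any of these 3 genes. A share of 57.2% of the 50-base words of HIST1H2BK also occurs in the transcripts of other genes, chiefly H2BFS, so its counts may be split or lost.

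HIST1H1C, which encodes the linker histone H1.2, was at 6.49, 4.31 and 5.36 CPM in Prolif_DMSO and at 40.4, 40.5 and 40.3 CPM in IR_DMSO (log2 fold change 2.88 ± 0.13, adjusted p = 2.67e-14). The pseudogene HIST1H1PS1 was the other tested H1 member called higher, from no count in Prolif_DMSO. HIST1H1E was at 1.26 ± 1.06 CPM before and 0.831 ± 0.569 CPM after irradiation, and HIST1H1D at 1.21 ± 1.13 and 0.500 ± 0.285 CPM, neither of them called. Prolif_DMSO replicate 1 alone held 2.47 CPM of HIST1H1E and 2.52 CPM of HIST1H1D, with the other 2 libraries of that group between 0.517 and 0.793 CPM.

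Among the H4 genes, 6 of 12 rose (26.3% of all tested genes) and 1 fell (25.3%). HIST1H4H was at 1.47, 0.948 and 1.04 CPM in Prolif_DMSO and 19.1, 15.5 and 16.4 CPM in IR_DMSO (log2 fold change 3.82 ± 0.20, adjusted p = 1.39e-13). HIST1H4I had 3.03, 2.59 and 1.64 CPM before irradiation, and 7.18, 17.7 and 17.0 CPM after it (log2 fold change 2.51 ± 0.27, adjusted p = 2.2e-07). IR_DMSO replicate 1 was the low library for HIST1H4I, and likewise for HIST1H2BC and HIST1H2BD, where it held 7.16 and 9.46 CPM against 15.8 to 17.2 CPM in the other 2 libraries. HIST1H4C went the other way, with 3.86, 2.03 and 1.89 CPM in Prolif_DMSO and 0.723, 0.820 and 0.593 CPM in IR_DMSO (log2 fold change -1.88 ± 0.50, adjusted p = 0.00382). It was thus lower in all 3 IR_DMSO libraries than in any Prolif_DMSO library.

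In the H2B class, which had the most tested members, 10 of 19 were called, all higher (26.3% of all tested genes rose). HIST1H2BC rose by 3.31 ± 0.41, HIST1H2BD by 2.99 ± 0.21, HIST1H2BG by 2.83 ± 0.23 and HIST1H2BJ by 1.95 ± 0.21 on the log2 scale. Antisense genes overlap annotated exons of HIST1H2BC, and also those of HIST1H2BE, HIST1H4H and HIST1H1PS1, among others. Since the strand setting of the counting is not given in the sources used here, reads of such overlapping genes cannot be told apart. HIST1H2AC is overlapped by another gene on its own strand. HIST1H2BE and HIST1H2BF had 0.535 ± 0.203 and 0.779 ± 0.312 CPM in IR_DMSO and 0.223 ± 0.0845 and 0.377 ± 0.423 CPM in Prolif_DMSO, and neither was called. In the H2A class 4 of 11 rose, with HIST3H2A at 3.09 ± 0.63 and 8.78 ± 1.24 CPM (log2 fold change 1.48 ± 0.21) and HIST1H2AG at 2.56 ± 0.92 and 5.60 ± 0.42 CPM (1.09 ± 0.23).

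In the H3 class 2 of 10 tested members were higher (26.3% of all tested genes) and 1 was lower (25.3%). The median log2 fold change was -0.91. The summed H3 level was 19.3 CPM in Prolif_DMSO replicate 1 and 8.88 and 8.09 CPM in the other 2 libraries, and without the 4 libraries that stood apart the median was -0.22 over 9 tested members. Within RG7388 and HDM201 it was -0.15 and -0.47 with all libraries. The risers were HIST1H3E, at 0.973, 0.776 and 0.711 CPM in Prolif_DMSO and 6.76, 6.54 and 5.23 CPM in IR_DMSO (log2 fold change 2.88 ± 0.22, adjusted p = 1.26e-10), and HIST1H3H, at 0.904 ± 0.622 and 4.59 ± 0.63 CPM (2.22 ± 0.35). Both are annotated past the stem-loop with a poly(A) signal. HIST1H3J fell by 1.90 ± 0.75 (adjusted p = 0.0425), but its groups overlapped, and the call was lost when replicate 1 of Prolif_DMSO was left out, and when replicate 2 or 3 of IR_DMSO was. Its log2 fold change was -1.16 at the smallest in the 6 fits that each left out 1 library. HIST2H3PS2, whose name is that of a pseudogene but which is annotated as protein-coding, was at 3.88 ± 0.21 and 3.04 ± 0.67 CPM and was not called.

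**Figure D2:**
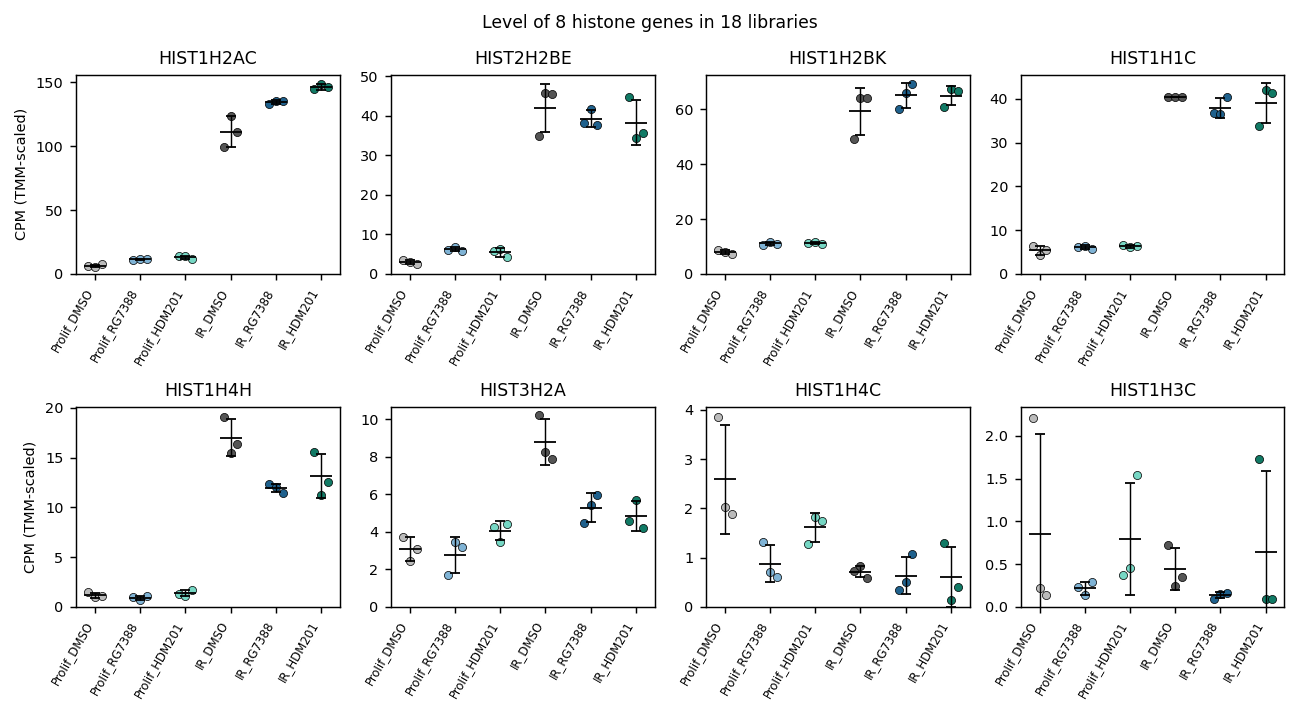
Level of 8 histone genes (y axis, TMM-scaled CPM, linear and starting at 0) in the 6 groups on the x axis, with 1 point per library, and a dash and bar for the mean ± SD of 3. HIST1H2AC, HIST2H2BE, HIST1H2BK, HIST1H1C and HIST1H4H are higher in every irradiated library than in any proliferating one, HIST3H2A is highest in IR_DMSO, HIST1H4C is highest in Prolif_DMSO, and HIST1H3C is high in 3 of the 4 libraries that stood apart.

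Calls divided by where the annotation of a gene ends. Of the 16 tested members annotated past the stem-loop, 13 rose after irradiation in DMSO, none fell, and the median log2 fold change was 2.19. The exceptions were HIST3H2BB, HIST1H2BE and HIST2H3PS2. Among all tested genes 26.3% rose and 25.3% fell. Of the 37 tested members annotated to the stem-loop, 8 rose, a share not above that of all genes, 2 fell and the median was -0.65. Those 8 were HIST1H1C, HIST1H2BK, HIST1H2BG, HIST1H4I, HIST1H4K, HIST1H4E, HIST1H2AE and HIST1H2AG. In the comparisons within RG7388 and HDM201, described below, the median of these 37 members was 0.41 and 0.20, so its sign in DMSO was not shared. Without the 4 libraries that stood apart, 26 members of the set passed the filter. In DMSO 10 of them rose, a share then above that of all tested genes (28.3%). There 2 fell (28.7%) and the median was 0.57. With HDM201 7 rose (26% of all tested genes), 7 fell (27.9%) and the median was -0.56. For the members annotated past the stem-loop the median without those libraries was 3.00 in DMSO, 2.22 with RG7388 and 2.07 with HDM201. Mean levels over all libraries were under 1 CPM for 43 of the 51 members annotated to the stem-loop and for 6 of the 18 annotated past it. In summed level, the 18 genes annotated past the stem-loop went from 26.6 ± 3.6 to 236 ± 25.9 CPM and the 51 others from 44.4 ± 23.3 to 148 ± 8.21 CPM. Among members annotated past the stem-loop, those with the poly(A) signal in the last 50 bases (8 of 11 tested rose, median 2.22) and those without it (5 of 5 rose, median 2.17) had similar medians. No test of the difference between these sets of genes was made.

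**Figure D3:**
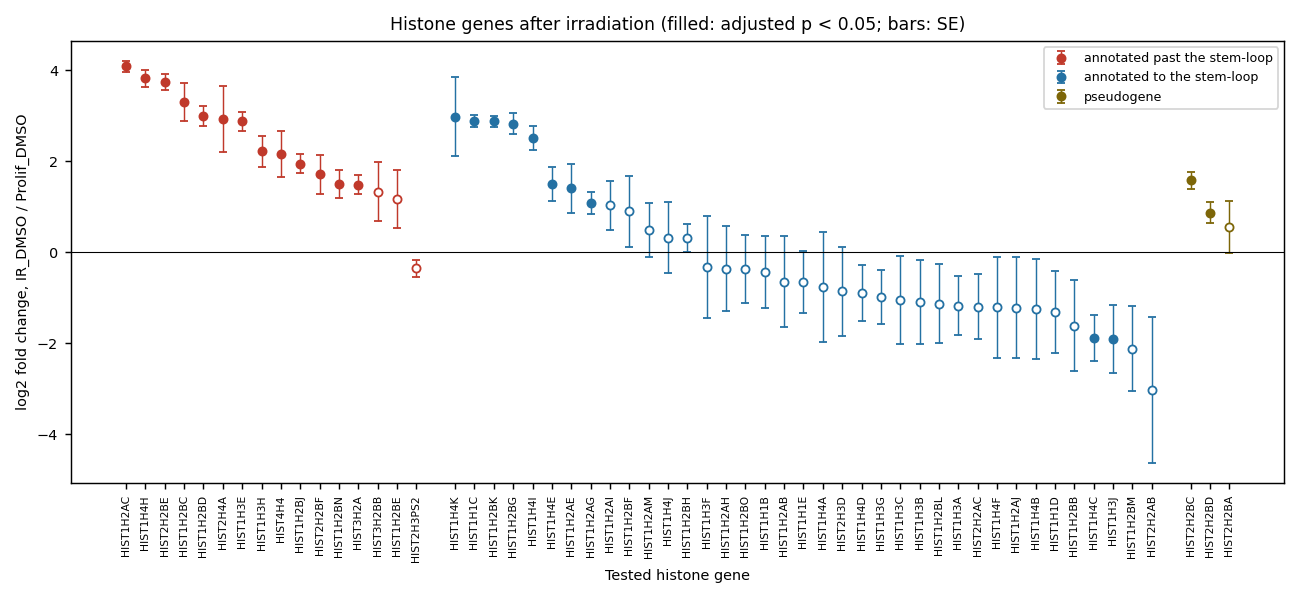
Log2 fold change of IR_DMSO over Prolif_DMSO (y axis) for 56 tested histone genes on the x axis, split by annotated end and sorted within each set, with bars for the SE and filled points for adjusted p under 0.05. Filled points above 0 fill most of the first set, whereas the second set runs from 2.98 to -3.02 with 10 of 37 points filled, and the pseudogenes on the right have 2 filled points. HIST1H1PS1, which had no count in Prolif_DMSO, is left out.

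A list of 12 histone genes reported to make polyadenylated messages was drawn up from general knowledge, with earlier results of these data known. It had 11 tested members, of which 9 rose after irradiation in DMSO (26.3% of all tested genes) and the median log2 fold change was 2.88. Because the list was written with results known, this count is a description and not a test. HIST1H2BE and HIST1H2BF were the 2 not called. The twelfth, HIST2H2AA3, was not tested for want of counts.

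The counts of HIST2H2AA3 and of its near-identical copy HIST2H2AA4 (both encoding H2A) were 52 and 50 over all 18 libraries. In the deposited FPKM table, which comes from Cufflinks and not from the HTSeq counts, the same pair was among the highest members. HIST2H2AA3 was at 13.0, 6.81 and 5.21 FPKM in Prolif_DMSO and at 114, 120 and 118 FPKM in IR_DMSO, and HIST2H2AA4 at 8.51 ± 4.36 and 122 ± 4.10 FPKM. On the log2(FPKM + 1) scale the differences were 3.75 ± 0.20 and 3.79 ± 0.21 (limma, adjusted p = 2.12e-10 and 2.44e-10), in a fit that called 38.7% of 14248 genes higher and 27 of 57 tested histone genes. The counts were also higher after irradiation, but too few to be tested. HIST2H2AA3 had 1, 0 and 1 counts in Prolif_DMSO and 20, 2 and 4 in IR_DMSO. HIST2H2AA4 had 1, 0 and 0 counts in Prolif_DMSO and 8, 3 and 4 in IR_DMSO. The rise of this pair was therefore tested only in the FPKM table, and neither table can divide it between the copies. HIST2H4A and HIST2H4B, another near-identical pair, had 5.18 ± 4.7 and 3.85 ± 3.8 FPKM in Prolif_DMSO and 17.1 ± 2.7 and 10.1 ± 1.1 FPKM in IR_DMSO, and HIST2H4A was also called higher from counts (log2 fold change 2.93 ± 0.73, adjusted p = 0.00178). HIST1H4K, which shares 92.6% of its 50-base words with other genes, was called higher from counts (2.98 ± 0.87, with overlapping groups) but had a difference of 0.09 ± 0.54 on the log2(FPKM + 1) scale. In all, 22 members share over 50% of their 50-base words with other genes, 13 of them tested.

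Per length, on the deposited FPKM scale, HIST1H2BK was the highest member in both states, at 23.2 ± 1.4 FPKM in Prolif_DMSO and 202 ± 49 FPKM in IR_DMSO. In IR_DMSO it was followed by HIST2H2AA4 and HIST2H2AA3, then HIST1H2AC (72.4 ± 8.7 FPKM) and HIST1H1C (63.4 ± 5.7 FPKM), which differed by about their spread, and by HIST1H2BC (25.4 ± 14), HIST1H2BD (22.4 ± 8.0) and HIST2H2BE (20.97 ± 3.13), which did not differ beyond it. In Prolif_DMSO the order below HIST1H2BK could not be set, since HIST2H2AA4 (8.51 ± 4.4 FPKM), HIST1H4C (7.49 ± 3.8 FPKM) and HIST1H1C (6.83 ± 2.4 FPKM) overlapped. Counts became concentrated in few genes: HIST1H2AC, HIST1H2BK, HIST2H2BE and HIST1H1C took 31.2% ± 7.2 of the histone counts in Prolif_DMSO and 63.0% ± 1.2 in IR_DMSO.

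Many H2A and H2B genes are arranged head to head, transcribed away from a shared upstream stretch. The members formed 12 such pairs, with annotated start sites 194 to 251 bases apart, and both partners were tested in 9. After irradiation in DMSO both partners rose in 3 pairs, 1 partner was called higher and the other was not called in 3, and neither was called in 3. The pairs with 1 partner called include HIST3H2A/HIST3H2BB, whose partners had similar log2 fold changes of 1.48 and 1.33 (adjusted p = 0.0924 for the second). The difference between partners was not tested. In the HIST1H2BC/HIST1H2AC pair both rose, by 3.31 ± 0.41 and 4.09 ± 0.12. In the HIST2H2BE/HIST2H2AC pair HIST2H2BE rose by 3.75 ± 0.17, while HIST2H2AC stood at 1.36, 0.905 and 0.547 CPM in Prolif_DMSO and 0.489, 0.398 and 0.350 CPM in IR_DMSO (log2 fold change -1.19, adjusted p = 0.168). The third example, HIST1H2BK/HIST1H2AH, had HIST1H2BK at 2.88 ± 0.12 and HIST1H2AH at -0.36 (adjusted p = 0.766). The ratio of HIST2H2BE to HIST2H2AC, with 0.1 CPM added to each, was 1.35 to 2.05 on the log2 scale in the Prolif_DMSO libraries and 5.90 to 6.66 in the IR_DMSO libraries, without overlap. That of HIST1H2BC to HIST1H2AC overlapped, at -3.36 to -1.48 and -3.77 to -2.81. HIST2H2BE is annotated 1729 bases past its stem-loop with a poly(A) signal, and HIST2H2AC 5 bases past it, but HIST1H2BK and HIST1H2AH are both annotated to the stem-loop.

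The stretches between the gene models of the 3 pairs are given below from hg38, read on the plus strand, so that the first gene of each name is transcribed leftward from the start and the second rightward from the end. Capitals mark the motif TATAAA, the CCAAT box and the octamer, spelled ATTTGCAT, on either strand, and adjacent or overlapping matches can run together.

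HIST1H2BC/HIST1H2AC (chr6:26123927-26124144): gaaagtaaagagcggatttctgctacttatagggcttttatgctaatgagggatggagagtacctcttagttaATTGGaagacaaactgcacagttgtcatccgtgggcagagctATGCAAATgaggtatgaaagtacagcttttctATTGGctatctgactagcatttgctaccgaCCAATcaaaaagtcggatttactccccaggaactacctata
HIST2H2BE/HIST2H2AC (chr1:149886683-149886917): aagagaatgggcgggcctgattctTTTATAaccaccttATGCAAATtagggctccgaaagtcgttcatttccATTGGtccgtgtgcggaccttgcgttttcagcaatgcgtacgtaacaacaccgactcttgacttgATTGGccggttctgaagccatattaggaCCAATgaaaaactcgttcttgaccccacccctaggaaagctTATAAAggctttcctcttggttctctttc
HIST1H2BK/HIST1H2AH (chr6:27146856-27147105): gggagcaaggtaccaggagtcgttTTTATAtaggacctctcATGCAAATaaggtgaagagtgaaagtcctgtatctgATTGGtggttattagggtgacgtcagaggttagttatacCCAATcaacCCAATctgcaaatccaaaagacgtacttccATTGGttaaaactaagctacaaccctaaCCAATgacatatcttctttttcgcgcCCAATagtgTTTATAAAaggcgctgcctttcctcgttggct

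The stretch of HIST2H2BE/HIST2H2AC holds a TATAAA match near each end, 3 CCAAT matches and 1 octamer, and that of HIST1H2BK/HIST1H2AH also has TATAAA matches near both ends, with 6 CCAAT matches and 1 octamer. The stretch of HIST1H2BC/HIST1H2AC has none of the first, 3 of the second and 1 of the third. It is cut at the outermost gene models, and both of its genes had a TATAAA match in the promoter windows described next. In RefSeq promoters (GRCh38.p14, 250 bases before to 50 after the start), which matched 64 of the 69 coding members, TATAAA was found in 65.6% of the members and 11.5% of all 35116 promoters, CCAAT in 84.4% and 34.6%, and the octamer in 40.6% and 1.77%. For members that rose after irradiation in DMSO the shares were 61.9%, 76.2% and 42.9% of 21, and for tested members that did not rise 75.0%, 89.3% and 39.3% of 28. These matches describe letters in a window and not bound sites.

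**Figure D4:**
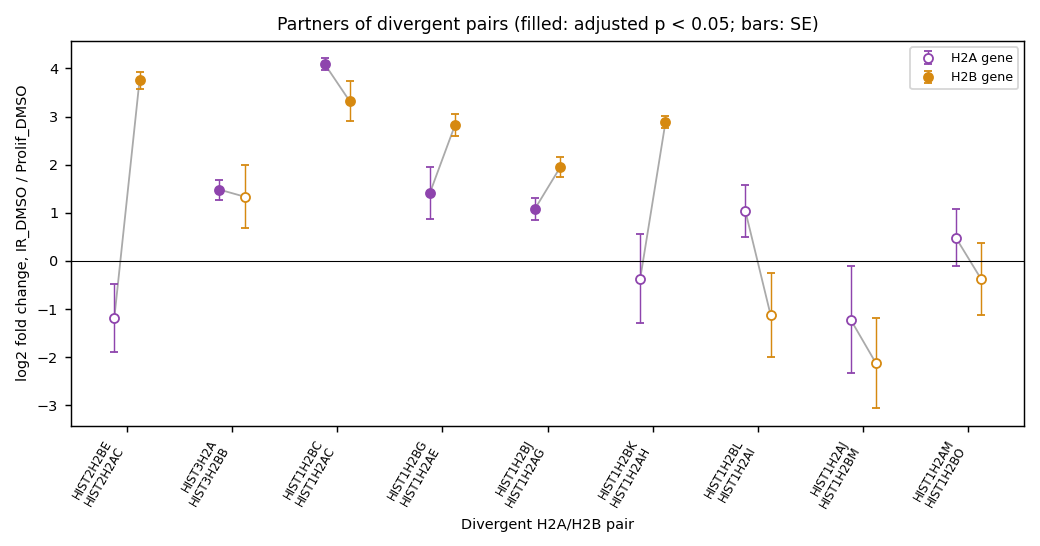
Log2 fold change of IR_DMSO over Prolif_DMSO (y axis) for the H2A and H2B partners of the 9 head-to-head pairs with both genes tested (x axis), joined by a line, with bars for the SE and filled points for adjusted p under 0.05. The partners of HIST2H2BE/HIST2H2AC and HIST1H2BK/HIST1H2AH are the farthest apart, with 1 filled point each, while both partners of HIST1H2BC/HIST1H2AC lie above 3.

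The same comparison was made within each compound, in libraries that share no sample with the DMSO comparison. With RG7388, 21 of 57 members were higher in irradiated cells (21.3% of all tested genes) and 1 was lower (22.8%). With HDM201, 17 were higher (22.7%) and 2 lower (23.8%). When the 4 libraries were left out, 25 of 47 members were higher (28% of all tested genes) and 2 lower (29.3%) with RG7388. With HDM201 18 were higher (26%) and 9 lower (27.9%). The 22 members called with RG7388 and all libraries were called again, but only 14 of the 19 called with HDM201 were. A group of 16 members was called higher in all 3 comparisons. These were HIST1H2AC, HIST2H2BE, HIST1H2BK, HIST1H1C, HIST1H4H, HIST1H4I, HIST1H2BC, HIST1H2BD, HIST1H2BG, HIST1H2BJ, HIST1H2BN, HIST1H3E, HIST1H3H, HIST1H2AG and the pseudogenes HIST2H2BC and HIST2H2BD. All 50-base words of these pseudogenes also occur in other genes. The share of all tested genes called higher in all 3 comparisons was not counted, so the 16 cannot be set against it. None of the 5 members called lower in at least 1 comparison was lower in all 3.

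HIST1H2AC was at 10.9, 11.7 and 11.9 CPM in Prolif_RG7388 and 133, 136 and 135 CPM in IR_RG7388 (log2 fold change 3.55 ± 0.12), and at 13.7, 13.9 and 11.5 CPM in Prolif_HDM201 and 144, 149 and 146 CPM in IR_HDM201 (3.49 ± 0.12). HIST2H2BE rose by 2.65 ± 0.16 with RG7388 and by 2.82 ± 0.16 with HDM201, HIST1H2BC by 3.86 ± 0.46 and 3.23 ± 0.41, HIST1H4H by 3.73 ± 0.21 and 3.23 ± 0.19, and HIST1H2BG by 2.66 ± 0.24 and 2.82 ± 0.24. HIST1H2BE, uncalled in DMSO, was called with RG7388 (1.88 ± 0.70, adjusted p = 0.0339) and with HDM201 (1.94 ± 0.70, adjusted p = 0.0272), at means under 0.7 CPM. The groups overlapped with HDM201, where the call was lost without replicate 1 or 3 of IR_HDM201 or replicate 3 of Prolif_HDM201, and its call with RG7388 was lost in 4 of 6 fits that each left out 1 library (replicates 1 and 3 of either group).

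With all libraries few members fell. HIST1H3G fell with RG7388, from 0.644 ± 0.195 to 0.141 ± 0.060 CPM (log2 fold change -2.24 ± 0.75, adjusted p = 0.0203), and the call was lost without replicate 1 or 2 of IR_RG7388 or replicate 3 of Prolif_RG7388. With HDM201 the calls of HIST2H2BC (0.67) and HIST1H2AG (0.86) were lost without IR_HDM201 replicate 1, at 0.39 and 0.49. HIST2H3PS2 fell with HDM201, from 4.06 ± 0.68 to 2.08 ± 0.08 CPM (log2 fold change -0.95 ± 0.19, adjusted p = 0.000285). HIST1H3F had no count in the 3 IR_HDM201 libraries and 0.0748, 0.114 and 0.806 CPM in Prolif_HDM201, which makes it at least 15.7-fold lower when 3 counts over the group are taken as the floor (adjusted p = 0.0396). The highest of these values was in Prolif_HDM201 replicate 3, and without that library, or without any of the 3 IR_HDM201 libraries, HIST1H3F was no longer called. The pseudogene HIST1H1PS1 had no count in Prolif_DMSO and Prolif_RG7388, and was at least 16.3-fold and 7.46-fold higher in IR_DMSO and IR_RG7388 by the same floor. Without the 4 libraries that stood apart, 9 of 47 members, rather than 2 of 57, were called lower with HDM201 (27.9% of all tested genes), namely HIST2H3PS2, HIST1H4C, HIST1H3B, HIST1H3C, HIST1H3G, HIST1H1B, HIST1H1D, HIST1H2AJ and HIST2H3DP1. HIST1H1D, for example, was then at -4.21 ± 0.98 (adjusted p = 0.000927) in place of -0.31. In IR_HDM201 it was at 1.66, 0.0439 and 0 CPM, with the high value in replicate 1.

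The next question was what the MDM2 inhibitors did to these genes in irradiated cells. Both comparisons use the same IR_DMSO libraries, which are also part of the irradiation comparison above, and the compounds were given at different doses, so their values are set side by side and not compared. With RG7388, 0 of 57 members were higher (10.9% of all tested genes) and 7 were lower (11.9%), and the median log2 fold change was -0.70 over the tested members and -0.03 over all tested genes. With HDM201, 1 was higher (9.96%) and 4 were lower (11.3%), with medians of -0.26 and -0.02. The members called lower were 12.3% and 7.02% of those tested, near the shares of all genes, but this did not hold without the 4 libraries that stood apart, as given below. The summed level was 401 ± 34.1 CPM in IR_DMSO, 394 ± 7.81 CPM in IR_RG7388 and 414 ± 18.7 CPM in IR_HDM201.

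HIST2H2BC, a transcribed H2B pseudogene whose 50-base words all occur in other genes, was at 11.4, 11.1 and 9.45 CPM in IR_DMSO, 7.20, 6.68 and 5.73 CPM in IR_RG7388 and 7.59, 5.23 and 4.66 CPM in IR_HDM201. Its log2 fold change was -0.70 ± 0.18 with RG7388 (adjusted p = 0.00605) and -0.85 ± 0.18 with HDM201 (adjusted p = 0.00164). HIST3H2A, an H2A gene of the small chromosome 1 cluster, was at 10.2, 8.25 and 7.89 CPM in IR_DMSO, 4.46, 5.41 and 5.96 CPM in IR_RG7388 and 4.58, 5.71 and 4.18 CPM in IR_HDM201 (-0.74 ± 0.20 and -0.87 ± 0.21). HIST1H4E was at 2.40, 2.66 and 2.56 CPM in IR_DMSO, 1.09, 0.928 and 1.37 CPM in IR_RG7388 and 1.17, 1.01 and 1.24 CPM in IR_HDM201 (-1.16 ± 0.36 and -1.15 ± 0.37). In all 3 genes every treated library lay under every IR_DMSO library.

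With RG7388 alone the calls also took in HIST4H4, the lone H4 gene of chromosome 12, at 1.64, 1.49 and 1.80 CPM in IR_DMSO and 0.414, 0.433 and 0.285 CPM in IR_RG7388 (log2 fold change -2.11 ± 0.51, adjusted p = 0.00381). They further took in HIST1H2BH (1.77 ± 0.36 and 0.762 ± 0.018 CPM, -1.21 ± 0.32), HIST1H3G (-2.09 ± 0.73) and HIST1H4H (17.0 ± 1.89 and 11.9 ± 0.44 CPM, -0.51 ± 0.16). With HDM201 HIST2H3PS2 was called at -0.54 ± 0.19 (adjusted p = 0.0485). The only riser was HIST1H2AC with HDM201, at 99.1, 124 and 111 CPM in IR_DMSO and 144, 149 and 146 CPM in IR_HDM201 (0.39 ± 0.10, adjusted p = 0.00756). With RG7388 it was at 133, 136 and 135 CPM (0.27, adjusted p = 0.0581). Whether the compounds differ in these genes was not tested.

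Single libraries decided part of these calls. The number of members called with RG7388 ranged from 3 to 7 when each of the 6 libraries was left out in turn, with 3 without IR_RG7388 replicate 1 and 4 without IR_RG7388 replicate 2. HIST2H2BC, HIST1H2BH and HIST4H4 were called in all 6 of those fits, and HIST3H2A in 5, losing its call without IR_RG7388 replicate 1 (log2 fold change -0.61 at the smallest over the 6 fits). HIST1H3G was called in 0 of 6, HIST1H4H in 2 and HIST1H4E in 3. With HDM201 the range was 4 to 9, with the 9 reached without IR_HDM201 replicate 1, and HIST2H2BC, HIST3H2A and HIST1H2AC were called in all 6 fits, HIST2H3PS2 and HIST1H4E in 1 each. In the fit that left out the 4 libraries, 47 members passed the filter. With RG7388, 12 of them were lower (25.5%, against 16.4% of all tested genes) and 2, HIST1H2AC and HIST1H2AJ, were higher (17% of all tested genes). With HDM201, 16 were lower (34%, against 14.5%) and 1, HIST1H2AC, was higher (16.7%). The shares called lower were thus above those of all genes in this fit. The 4 libraries were set apart partly by low histone genes themselves, so these shares cannot be read apart from that choice. Each of the 7 and 5 members called with all libraries was called again. The additional ones with HDM201 included HIST2H2BE at -0.36 ± 0.10, HIST1H3H at -0.92 ± 0.24 and HIST1H1D at -3.79 ± 1.00.

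In proliferating cells the compounds changed few genes (279 with RG7388 and 127 with HDM201), and 3 histone genes were among those that rose with RG7388 (3 of 57 members against 1.2% of all tested genes). HIST2H2BE went from 3.63, 3.06 and 2.57 CPM in Prolif_DMSO to 6.09, 6.84 and 5.81 CPM in Prolif_RG7388 (log2 fold change 1.00 ± 0.17, adjusted p = 0.00236). HIST1H2AC went from 6.30, 5.82 and 7.41 CPM to 10.9, 11.7 and 11.9 CPM (0.82 ± 0.12, adjusted p = 0.000255). HIST1H2BK went from 8.01 ± 0.685 to 11.2 ± 0.56 CPM (0.48 ± 0.12, adjusted p = 0.0415), but this call was lost in all 6 fits that left out 1 library, with a log2 fold change of 0.42 to 0.55. The groups did not overlap for any of the 3 genes. Without the 4 libraries that stood apart, 4 of 47 members rose with RG7388 and 0 fell. In that fit 6.54% of all tested genes were called in either direction.

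With HDM201, 2 of 57 members rose (0.545% of all tested genes) and none fell. HIST1H2AC was at 13.7, 13.9 and 11.5 CPM in Prolif_HDM201 (log2 fold change 0.99 ± 0.11, adjusted p = 1.82e-05) and HIST2H2BE at 5.80, 6.36 and 4.27 CPM (0.80 ± 0.17, adjusted p = 0.0246). The HIST2H2BE call was lost without replicate 2 or 3 of Prolif_DMSO or replicate 1 or 2 of Prolif_HDM201, and over all 6 fits its log2 fold change ran from 0.67 to 0.96. Without the 4 libraries that stood apart, 5 of 47 members rose (8.12% of all tested genes), and the additions were HIST1H2BK (0.59 ± 0.11), HIST1H2BD (0.76 ± 0.20) and HIST1H4I (0.82 ± 0.20). HIST1H2AC was called with either compound in every fit that left out 1 library. Both comparisons share the Prolif_DMSO libraries.

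The effect of each compound was then tested for a difference between states, as the change in irradiated cells minus the change in proliferating cells. With RG7388 this difference was called lower for 2 of 57 members (5.27% of all tested genes), HIST2H2BE at -1.10 ± 0.22 (adjusted p = 0.00231) and HIST1H2AC at -0.54 ± 0.15 (adjusted p = 0.03). HIST2H2BE had risen by 1.00 in proliferating cells and had a log2 fold change of -0.10 in irradiated cells. With HDM201 it was called lower for 5 members (5.67%), which were HIST3H2A (-1.24 ± 0.30), HIST1H3E (-1.06 ± 0.30), HIST2H2BE (-0.93 ± 0.22), HIST2H2BC (-0.91 ± 0.27) and HIST1H2AC (-0.60 ± 0.15). HIST2H2BE with both compounds and HIST3H2A with HDM201 were called in all 12 fits that left out 1 library, while HIST1H2AC was called in 3 of 12 with RG7388 and 8 of 12 with HDM201, HIST2H2BC in 4 and HIST1H3E in 5. Leaving out the 4 libraries that stood apart gave 7 of 47 members with RG7388 (8.21% of all tested genes) and 11 with HDM201 (9.12%), without HIST1H3E, which was then at -0.84 (adjusted p = 0.114).

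**Figure D5:**
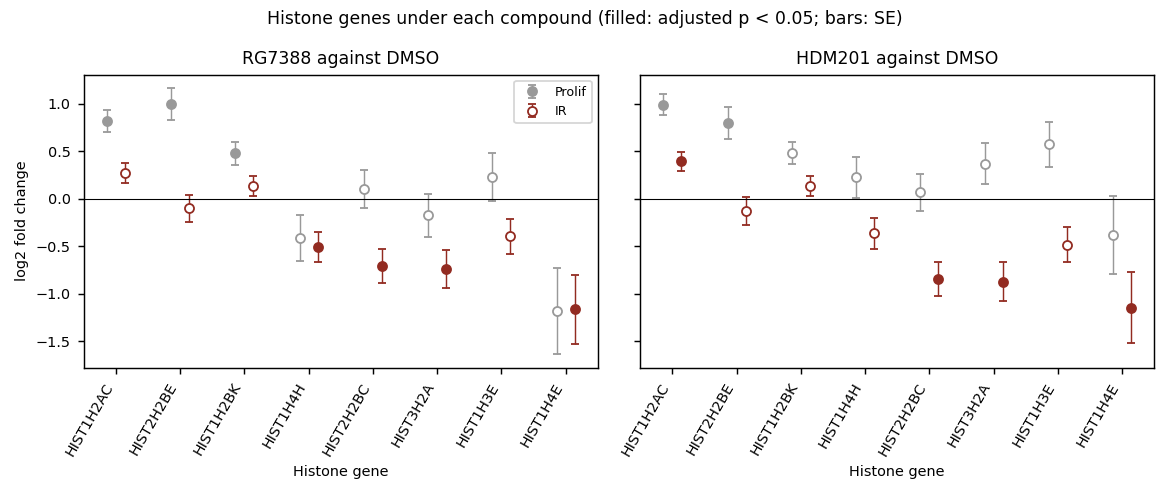
Log2 fold change against DMSO (y axis) for 8 histone genes on the x axis, under RG7388 on the left and HDM201 on the right, in proliferating (grey) and irradiated (red) cells, with bars for the SE and filled points for adjusted p under 0.05. HIST1H2AC and HIST2H2BE have filled grey points near 1, above their red points, and the filled red points of HIST2H2BC, HIST3H2A and HIST1H4E lie under -0.5.

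Genes that act on histone messages or histones, taken from lists written with earlier results known, fell more often than they rose. In the irradiation comparison in DMSO, where 25.3% of all tested genes fell and 26.3% rose, the lists stood as follows. Of 34 genes of histone message synthesis, processing and decay, 20 fell and 3 rose. LSM11, a subunit of the U7 RNP, went from 19.7 to 5.03 CPM (log2 fold change -1.97 ± 0.15) and SLBP from 67.9 to 47.6 CPM (-0.51 ± 0.11, adjusted p = 0.000456), while LSM10 was at 25.7 and 26.7 CPM and NPAT, the activator of histone gene transcription, at 14.2 and 12.1 CPM, neither of them called. ZNF473, a further U7-associated factor, fell by 1.02 ± 0.14. Of 14 genes of the general poly(A) machinery and nuclear exosome, 6 fell and 1 rose, led by EXOSC10, an exosome nuclease, at 131 and 54.0 CPM (-1.28 ± 0.10).

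Genes listed as replacement or variant histones mostly fell, with 11 of 13 tested genes lower and 1 higher. CENPA, the centromeric H3, went from 44.4 to 1.96 CPM (log2 fold change -4.50 ± 0.16), H2AFX from 245 to 39.98 CPM (-2.62 ± 0.14) and H2AFZ from 481 to 140 CPM (-1.78 ± 0.11). H2AFJ was the riser, at 16.01 and 51.5 CPM (1.69 ± 0.13). Summed, these 21 genes were at 1973 ± 102 CPM in Prolif_DMSO and 780 ± 86.1 CPM in IR_DMSO, so that they took more counts than the 89 clustered genes in both states. Histone chaperones fell in 24 of 31 cases and rose in 2, with HJURP, the CENPA chaperone, at -3.51 ± 0.12 and CHAF1A, a subunit of the replication-coupled assembly factor, at -2.16 ± 0.11. Of 32 S-phase genes 31 fell, with a median log2 fold change of -2.11. In irradiated cells 26 of the 32 fell further with RG7388 (11.9% of all tested genes fell). With HDM201 10 fell (11.3% of all tested genes) and 1 rose (9.96%).

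RNAs without a poly(A) tail were scarce in these libraries. Of 27 such genes 3 passed the filter, and without RN7SL1, the signal recognition particle RNA, the 26 others summed to 2.66 ± 0.85 CPM in Prolif_DMSO and 1.90 ± 0.35 CPM in IR_DMSO. RN7SL1 was at 48.6 and 33.8 CPM in the 2 groups and was not called. The source of the low counts of histone genes annotated to the stem-loop was not tested.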

How the data were processed

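Poly(A)-selected RNA of 18 libraries was sequenced. The authors aligned the reads to hg38 with STAR, made raw counts per gene with HTSeq and computed FPKM values with Cufflinks, and both tables were used as deposited. For tool versions, annotation release and strand setting: not given in the sources used here. Groups were taken from the labels. These do not say that replicates are separate cultures, so p-values measure the spread between these libraries, which may be technical, and they give no sequencing batch.

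Of 60668 rows, 45 pseudoautosomal copies were left out. Counts were scaled by TMM, filtered by group with filterByExpr and fitted with edgeR 4.0.16 (R 4.3.3) by the robust quasi-likelihood method, with 1 mean per group over all 18 libraries and 12 residual degrees of freedom. In all, 9 contrasts were tested, each adjusted by the Benjamini-Hochberg method over the 18151 genes tested. Genes were called at an adjusted p under 0.05. CPM values are TMM-scaled. FPKM values were tested with limma 3.58.1 on log2(FPKM + 1), which understates changes of low genes. Where a group had no count, a bound was set from 3 counts over the group, which covers counting error only. The fit was tested on simulated data.

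Stem-loops, transcript ends and shared 50-base words were read from GENCODE 44 and the hg38 genome. Promoters came from RefSeq. The members and gene lists were chosen with earlier results of these data known. Named members were the 3 highest of each class, the 5 largest rises and falls per comparison among called members with a group mean of at least 1 CPM, the tested members of the list of polyadenylated histone messages, up to 3 called against the majority, and up to 3 genes of each other list with the smallest p. Any other named gene was chosen after its values were seen. Alternatives were DESeq2 1.42.0, other scaling, filters and pseudocounts, a replicate block, and libraries left out. The replicate numbers did not pair the libraries, since 9 of 45 pairs with the same number had deviations correlated above 0.1.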

Additional observations from a re-analysis of the deposited data

Results flagged for a closer look

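In 7 cases the effect of a compound on a histone gene differed between irradiated and proliferating cells by the edgeR test of that difference, given here as the log2 fold change in irradiated cells minus that in proliferating cells. With RG7388 the difference was -1.10 for HIST2H2BE and -0.54 for HIST1H2AC. With HDM201 it was -1.24 for HIST3H2A, -1.06 for HIST1H3E, -0.93 for HIST2H2BE, -0.91 for HIST2H2BC and -0.60 for HIST1H2AC. The differences for HIST2H2BE and HIST1H2AC rest on rises in proliferating cells, whereas HIST3H2A and HIST2H2BC were called lower in irradiated cells with HDM201 and were not called in proliferating cells. The comparisons of the compounds share the DMSO libraries of each state.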

How the results depend on the processing

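The number of members called in the 3 irradiation comparisons stayed within 1.5 times under all 39 alternatives that did not leave out a single library. The members behind it could still change. Without the 4 libraries that stood apart, 14 of the 19 members called with HDM201 were called again. For the compounds the number moved more. The counts below are of members, and the number of all genes called also moved with the setting. Scaling by library totals shifted the median of all genes by -0.19 to 0.29 on the log2 scale, and called 9 members for HDM201 in irradiated cells and 4 for the difference between states with RG7388, where no filter gave 1. It also turned the summed H2A level with RG7388 in irradiated cells from 0.16 to -0.024 on the log2 scale. Fits on the compared groups only called 13 members for RG7388 and irradiated cells, 5 for RG7388 and 1 for HDM201 in proliferating cells, and 3 for the HDM201 difference between states. DESeq2 called 4 for HDM201 in proliferating cells. In limma on FPKM, HDM201 in irradiated cells had 9 and in proliferating cells 1, RG7388 in irradiated cells had 3 with a pseudocount of 0.1 and 4 without a filter, and without a filter either compound in proliferating cells had 1 and the HDM201 difference 2. Asking for a change of at least 2-fold left 4 and 1 for RG7388 and HDM201 in irradiated cells, 0 for both in proliferating cells, and 1 and 2 for the differences between states. Without IR_DMSO replicate 1 and Prolif_HDM201 replicate 3 the counts were 4 for HDM201 in proliferating cells and 4 and 8 for the differences. In that fit 15.4% of all tested genes were called for HDM201 in proliferating cells (2833 genes, against 127 with all libraries). For the differences 12% and 18.1% were called. Without the 4 libraries that stood apart the counts were 14 and 17 in irradiated cells (33.4% and 31.2% of all tested genes called). They were 4 for RG7388 and 5 for HDM201 in proliferating cells (6.54% and 14%), and 7 and 11 for the differences (14.6% and 17.4%). The causes were not tested, apart from the fewer libraries used.

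With each library left out in turn, the count was 3 to 7 for RG7388 and 4 to 9 for HDM201 in irradiated cells, 1 to 3 for HDM201 in proliferating cells, and 1 to 2 and 2 to 5 for the differences with RG7388 and HDM201. It was 25 to 27, 20 to 21 and 18 to 26 for irradiation in DMSO, RG7388 and HDM201. Of 1422 alternatives of the 78 called values of single members, 153 lost the call and 0 changed sign. With the replicate number as a block, 27, 22 and 20 members were called for irradiation, 7 and 4 for the compounds in irradiated cells, 2 and 2 in proliferating cells, and 2 and 5 for the differences. The block lost HIST2H3PS2 with HDM201 in irradiated cells and HIST1H2BK with RG7388 in proliferating cells, and 8 of 18 libraries correlated best with their own number. Members with few counts, mostly those annotated to the stem-loop, had wide errors.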
